A study of Mus musculus with 11 samples.

Results

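The Obox genes and Crxos are homeobox genes that lie close together on mouse chromosome 7. They were examined in 11 RNA-seq libraries of mature mouse oocytes, which rest in metaphase II of meiosis (MII), and of 2-cell embryos, with and without maternal Daxx. The genes were chosen by symbol, after the Entrez identifiers of the count table had been matched to a gene table: Obox1, Obox2, Obox3, Obox5, Obox6, Obox7 and Crxos, or 7 of 24421 genes. The Daxx protein escorts the histone variant H3.3 to chromatin.

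All females carried floxed Daxx alleles (Daxx f/f) on a mixed C57BL/6J and 129/Sv background and were over 8 weeks old. Control females had no Cre. Knockout females also carried Zp3-cre, a Cre transgene driven by the promoter of a zona pellucida gene that is active in growing oocytes. Daxx loss and the transgene therefore cannot be told apart in any comparison of genotypes. Ovulation was induced with 5 IU of PMSG followed by 5 IU of hCG, and MII oocytes were taken 20 hours after hCG. The 2-cell embryos came from such oocytes fertilised in vitro with sperm of JF1 males 8 weeks of age, were grown in KSOM medium and were taken 33 hours after fertilisation. Embryos of knockout females lacked maternal Daxx and received a paternal allele (m-z+). There were 3 control oocyte, 3 knockout oocyte, 3 control embryo and 2 maternal knockout embryo libraries (replicates 2 and 3). For every library, 50 oocytes or embryos of 2 to 3 females had been pooled. In such bulk samples, fewer cells with a transcript and less transcript per cell cannot be told apart.

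Obox proteins are homeodomain transcription factors found in oocytes and cleavage embryos of rodents. Some family members are stored as maternal messages, which are largely cleared after fertilisation, and others are transcribed when the embryonic genome becomes active at the 2-cell stage. The family is known for promoting that activation by helping to bring RNA polymerase II to its target genes. Obox6 is also known from work on reprogramming of somatic cells, and Crxos is a homeobox gene expressed in embryonic stem cells beside the photoreceptor gene Crx.

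Counted reads numbered between 32582998 and 39798586 per oocyte library and between 17978192 and 25308468 per embryo library. Daxx was at 86.2 to 97.2 CPM (reads of a gene per 1000000 counted reads) in control oocytes, 7.83 to 8.40 in knockout oocytes, 35.2 to 46.7 in control embryos and 22.8 to 25.5 in maternal knockout embryos. Knockout libraries lay below the controls at both stages. The 11 oocyte markers measured summed to between 12543 and 13031 CPM in the oocyte libraries and between 2148 and 2738 in the embryos, with none at 0. The 12 markers of cumulus and granulosa cells summed to 35.8 to 40.9 CPM in control oocytes, 43.7 to 46.0 in knockout oocytes, 15.7 to 22.4 in control embryos and 17.8 to 26.1 in maternal knockout embryos. Foxl2 and Ptx3 were at 0 in control oocytes, Ptx3 in knockout oocytes, Inha in control embryos, and Foxl2 and Inha in maternal knockout embryos. Between control stages, edgeR called 1 of 6 tested higher in embryos (Tnfaip6, log2 7.03) and 4 lower, where 43.1% of all genes rose and 40.0% fell. In knockouts 1 of 7 rose (Tnfaip6, 7.99) and 2 fell, where 42.5% rose and 37.7% fell. Between oocyte genotypes 0 of 6 passed in edgeR, and 2 had an unadjusted p under 0.05, against 10.3% of all genes. The 11 spermatid markers summed to 7.94 to 8.51 CPM in control oocytes, 10.9 to 13.3 in knockout oocytes, and 10.4 to 19.5 in embryos of both genotypes. Of the 5 spermatid markers tested between oocyte genotypes, Prm2, a protamine gene, was higher in knockouts, at 5.46 ± 0.738 CPM against 1.85 ± 0.384 in controls (SD, n = 3 each; log2 1.54, SE 0.18, edgeR adjusted p = 0.0028). DESeq2 and limma-voom each called 1 gene of that list higher in knockout oocytes, and DESeq2 also called 1 cumulus and granulosa marker higher. The part of these markers in the results below was not tested.

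The 7 genes lie within 1244 kb of chromosome 7 (GRCm38), from the start of Obox7 to the end of Crxos. Obox7 is at 14659708 to 14665996, Obox2 at 15388851 to 15398545, Obox1 at 15547257 to 15556846 and Obox5 at 15750370 to 15759274. Obox3 is at 15625306 to 15639777, Obox6 at 15833250 to 15839679 and Crxos at 15882617 to 15904030. Each is annotated as protein coding. The 6 Obox genes have similar coding sequences, which matters for how reads are assigned to them. A 90-base stretch near the start of each coding sequence follows, from GENCODE transcripts of GRCm38, 5′ to 3′, with capitals at bases that differ from Obox5. It covers coding bases 8 to 97, or 35 to 124 in Obox6.
Obox5: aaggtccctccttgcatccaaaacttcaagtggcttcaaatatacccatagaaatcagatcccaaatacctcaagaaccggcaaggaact
Obox7: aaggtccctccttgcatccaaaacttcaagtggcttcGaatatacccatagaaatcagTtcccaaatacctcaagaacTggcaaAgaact
Obox2: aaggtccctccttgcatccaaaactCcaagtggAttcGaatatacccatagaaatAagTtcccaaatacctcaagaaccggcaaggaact
Obox1: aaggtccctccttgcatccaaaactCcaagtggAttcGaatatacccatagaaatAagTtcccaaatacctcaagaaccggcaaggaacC
Obox3: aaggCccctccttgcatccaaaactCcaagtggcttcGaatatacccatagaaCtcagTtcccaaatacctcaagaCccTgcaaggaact
Obox6: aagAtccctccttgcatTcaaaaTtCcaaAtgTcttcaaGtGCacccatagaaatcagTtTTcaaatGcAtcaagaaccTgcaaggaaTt
Obox7 differed from Obox5 at 4 of these 90 bases, Obox2 at 5, Obox1 at 6, Obox3 at 7 and Obox6 at 16.

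Over all aligned coding bases, Obox1 and Obox2 were 98.5% identical, Obox5 and Obox7 96.0%, and Obox3 and Obox5 94.0%. Obox6 was between 76.6% and 80.3% identical to the other Obox genes. These values leave out gaps, and Obox coding lengths ran from 453 (Obox2) to 1041 bases (Obox6). With gaps counted, identity was 72.9% for Obox1 and Obox2, 71.9% for Obox5 and Obox7 and 81.7% for Obox3 and Obox5. For Obox6 it then ran from 33.3% to 67.3%. Of the 50-base windows of the Obox1 transcript, 59.3% were found letter for letter in another of the 7 genes, nearly all of them in Obox2, and for Obox2 the share was 62.1%. It was 13.5% for Obox7, 8.81% for Obox5, 1.93% for Obox3 and 0% for Obox6 and Crxos. Other annotated genes, mostly Obox3 pseudogenes, held 40.3% of the Obox3 windows, and other genes held 28.6% of the Crxos windows. No source used here says how reads shared between genes were counted, so the division of reads between Obox1 and Obox2 is uncertain, as is the part of the Obox3 and Crxos values that belongs to copies. The sum of Obox1 and Obox2 is therefore given below beside the single values.

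**Figure D1:**
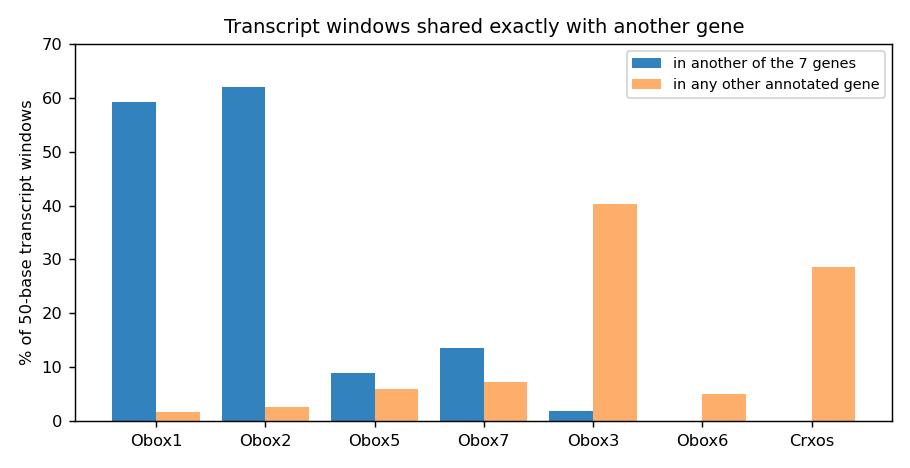
Percent of all 50-base windows of each gene's transcript (y axis) that occur letter for letter in another of the 7 genes (blue) or in any other annotated gene (orange). Obox1 and Obox2 share 59.3% and 62.1% of their windows with other members, while 40.3% of the Obox3 windows lie in genes outside the set.

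The region before the transcription start was compared in RefSeq windows of GRCm38.p6, which had an entry for 6 of the 7 genes and 3 listed starts for Crxos. Obox6 had no entry, so its region was not searched for the run or the motifs below. The longest run of letters present in every Obox window was sought, and it had 25 bases. Its presence in the windows of Obox1, Obox2, Obox3, Obox5 and Obox7 was thus set by the search. Runs shared by other related genes were not sought. This run occurred in 5 of all 32851 promoter windows, those of these 5 genes. It is shown because it is shared by genes that were high in oocytes and by Obox3, which was high in embryos. Capitals are not used in it.
Shared run: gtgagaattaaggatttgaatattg
The run is at chr7:14659624-14659648 (plus strand) for Obox7, chr7:15388850-15388874 (plus) for Obox2, chr7:15547159-15547183 (plus) for Obox1, chr7:15750260-15750284 (plus) for Obox5 and chr7:15639862-15639886 (minus) for Obox3. It began 84, 98, 109 and 110 bases before the listed start of Obox7, Obox1, Obox3 and Obox5, and 1 base before that of Obox2, so the listed starts do not mark the same place in these copies. Some GENCODE models start further upstream, and the run then lies in their first exon. Over the first 84 bases from the run onward, Obox5 and Obox7 did not differ, Obox1 differed from both at 1 base, and Obox3 differed from Obox5 at 6.

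Both strands of the 250 bases before each listed start were searched for 4 motifs, without Obox6, which had no window. TATATAA, the letters of a TATA box, was found in the windows of Obox1, Obox3 and Obox5, beginning 19, 30 and 31 bases before the start, and in 3.04% of all promoters. In Obox7 the same letters begin 5 bases before the listed start and run across it. GGATTA, the core bound by bicoid-type homeodomains, was found in that of Obox3 and in 6.25% of all promoters. TAATTG, an element of the type bound by the oocyte factor NOBOX, was in none of the members' windows and in 7.17% of all. The E-box CANNTG was in the windows of Obox1, Obox2, Obox5, Obox7 and Crxos and in 66.2% of all. None of these motifs overlaps another in the places found, and a match describes letters only.

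Obox1, Obox2, Obox5 and Obox7 were abundant in oocytes and lower in embryos of both genotypes, whereas Obox3, Obox6 and Crxos were at or near 0 in oocytes and abundant in embryos. In edgeR, the 4 genes abundant in oocytes fell from control oocytes to control embryos, where 40.0% of all 15577 genes tested fell and 43.1% rose (83.1% in all). From knockout oocytes to maternal knockout embryos, libraries that share no sample with the controls, the 4 fell as well, where 37.7% of 16592 genes fell and 42.5% rose (80.2% in all). The 2 stages did not overlap for any of the 7 genes in either genotype, which held for 85.0% and 86.9% of all genes. Most genes thus differed between these stages, and the count of members is not set apart from that background. Obox3, Obox6 and Crxos passed the filter on low counts only through the embryo libraries and had to differ, so their values are described without a test. CPM is a share of the counted reads, not an amount per oocyte or embryo.

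Among the maternal members, Obox1 was at 518, 554 and 562 CPM in the 3 control oocyte libraries and at 530, 564 and 584 in the knockout oocytes. In embryos it was at 84.7, 85.0 and 58.5 CPM in controls and at 80.1 and 96.7 in maternal knockouts. The lowest oocyte library was 5.36 times as high as the highest embryo library, and the genotypes overlapped at each stage. The embryo level was 14.0% of the oocyte level in controls (log2 change -2.86, SE 0.15, edgeR adjusted p = 4.8e-09) and 15.8% in knockouts (-2.71, SE 0.12, adjusted p = 3.4e-08).

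Obox2, the gene closest to Obox1 in sequence, was at 427, 426 and 509.9 CPM in control oocytes and at 467, 447 and 439.6 in knockout oocytes. In embryos it was at 27.9, 18.9 and 18.8 CPM in controls and at 16.6 and 23.1 in maternal knockouts. It had the deepest fall of the 4 maternal members, to 4.81% of the oocyte level in controls (log2 -4.40, SE 0.17, edgeR adjusted p = 5.0e-10) and 4.40% in knockouts (-4.56, SE 0.16, adjusted p = 1.2e-08). Counted together, Obox1 and Obox2 went from 999 ± 65.0 CPM (SD, n = 3) in control oocytes to 97.9 ± 18.4 (SD, n = 3) in control embryos, or 9.80% of the oocyte level. In knockouts they went from 1010.3 ± 13.3 CPM (SD, n = 3) to 108 ± 16.3 (SD, n = 2), or 10.7%.

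Obox7, the lowest of the maternal members in oocytes also per length, was at 159.8, 166.9 and 159.4 CPM in controls and 151.5, 169.0 and 164.4 in knockouts. Its embryo values were 21.0, 25.9 and 13.8 CPM in controls and 22.6 and 25.7 in maternal knockouts. The embryo level was 12.5% of the oocyte level in controls (log2 -3.03, SE 0.19, edgeR adjusted p = 3.5e-08) and 15.0% in knockouts (-2.79, SE 0.11, adjusted p = 2.0e-08).

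Obox5 kept a larger share of its oocyte level than the other maternal members. It was at 885, 921 and 926 CPM in control oocytes and at 822, 884 and 907 in knockout oocytes. In embryos it was at 437, 639 and 353 CPM in controls and at 410.5 and 599.9 in maternal knockouts. All embryo values were below all oocyte values, but the embryo libraries differed among themselves by up to 1.81-fold. The embryo level was 52.3% of the oocyte level in controls (log2 -0.96, SE 0.19, edgeR adjusted p = 0.00075) and 58.0% in knockouts (-0.83, SE 0.16, adjusted p = 0.0016). Whether the Obox5 reads of embryos came from stored or from newly made RNA cannot be told apart in these counts.

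**Figure D2:**
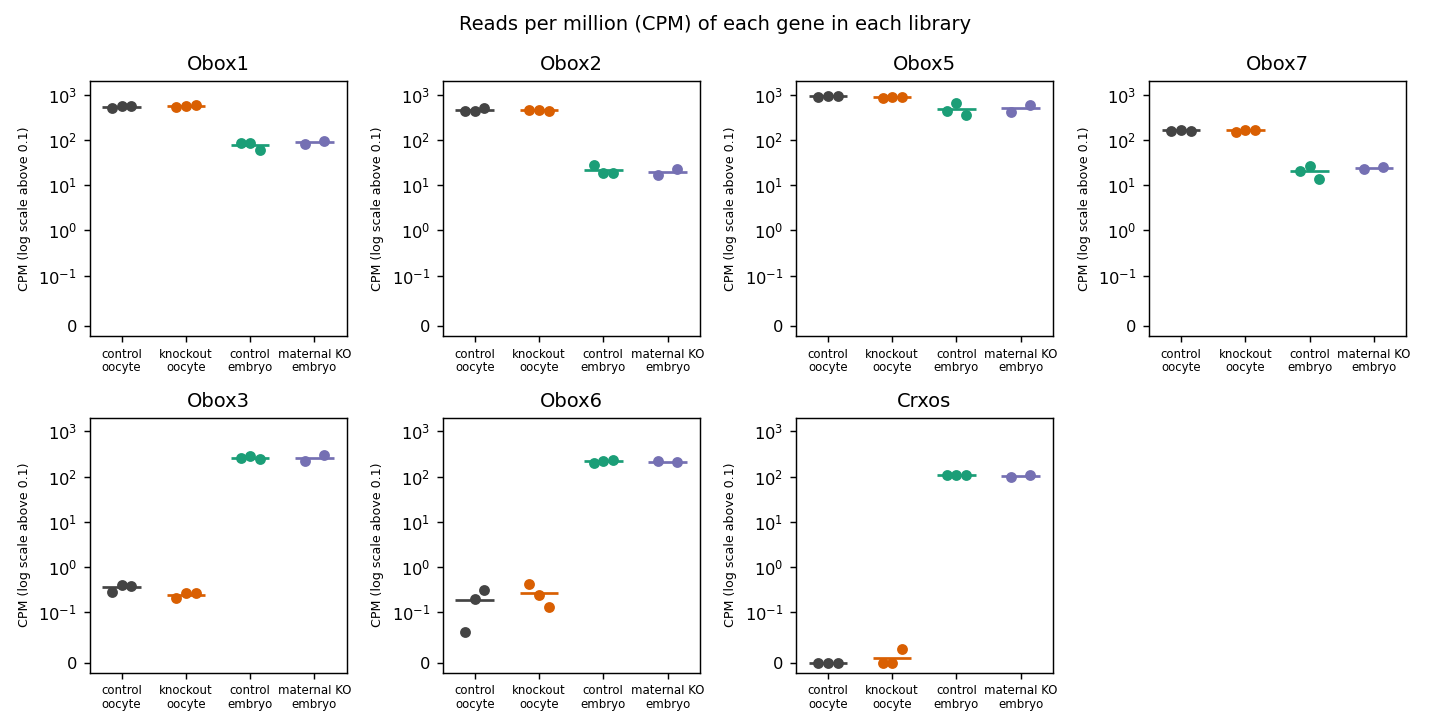
CPM (y axis, log scale above 0.1 and linear below) of each of the 7 genes in each library; points are libraries and short lines are group means. Obox1, Obox2, Obox5 and Obox7 are high in the 6 oocyte libraries and lower in the 5 embryo libraries, and Obox3, Obox6 and Crxos show the opposite, with Crxos at 0 in all but 1 oocyte library.

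The smaller fall of Obox5 was also examined inside each library, as reads of Obox5 per read of another maternal member, a measure that does not depend on library scaling and that was chosen after the values were seen. There were 1.55 to 1.71 reads of Obox5 per read of Obox1 in the 6 oocyte libraries and 5.12 to 7.52 in the 5 embryo libraries, a 3.68-fold difference. Against Obox2 the ratio was 1.76 to 2.16 in oocytes and 15.7 to 33.8 in embryos (11.7-fold). Against Obox7 it was 5.23 to 5.81 in oocytes and 18.1 to 25.5 in embryos (4.05-fold). Oocyte and embryo libraries did not overlap in any of the 3 ratios, which all share Obox5. Ratios of other gene pairs were not computed, so this separation has no background of its own. In CPM, 85.0% of single genes in controls and 86.9% in knockouts did not overlap between the stages. Among control embryos, Obox1, Obox5 and Obox7 were all lowest in replicate 3. Obox5 and Obox7 were highest in replicate 2 and Obox2 in replicate 1, while Obox1 was nearly the same in both (84.7 CPM in replicate 1 and 85.0 in replicate 2).

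Of the members abundant in embryos, Obox3 had 9, 16 and 15 reads in the control oocyte libraries and 8, 10 and 10 in the knockout oocytes, or 0.210 to 0.402 CPM. In embryos it was at 258, 291 and 243 CPM in controls and at 216 and 305 in maternal knockouts. The ratio of the mean CPM of embryos to that of oocytes was 741 in controls and 1055 in knockouts. The maternal knockout libraries included both the lowest and the highest embryo value.

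Obox6 had 2, 8 and 12 reads in control oocytes and 16, 9 and 5 in knockout oocytes. Its embryo values were 196, 222 and 229 CPM in controls and 222 and 209 in maternal knockouts, a narrower range than that of Obox3. The ratio of mean CPM was 1126 in controls and 817 in knockouts. With so few oocyte reads, the size of both ratios rests on small counts, and the 2 genotypes overlapped at each stage.

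Crxos had no read in the 3 control oocyte libraries and 1 read in the 3 knockout oocyte libraries together. In embryos it was at 105.9, 107.1 and 109.4 CPM in controls and at 98.0 and 106.1 in maternal knockouts, the narrowest spread of the 7 genes in control embryos (107 ± 1.81 CPM, SD, n = 3). Against a floor of 3 reads over the control oocyte group, Crxos was at least 3975-fold higher in control embryos. In knockouts, with 1 oocyte read, the ratio was 11549 with a 95% counting interval of 2072 to 456260.4. Crx, its neighbour on the other strand, ends 2661 bases away without overlap. Crx had 3 reads over the control oocyte libraries and reached 4.86 ± 1.09 CPM (SD, n = 3) in control embryos and 4.96 ± 0.590 (SD, n = 2) in maternal knockouts.

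**Figure D3:**
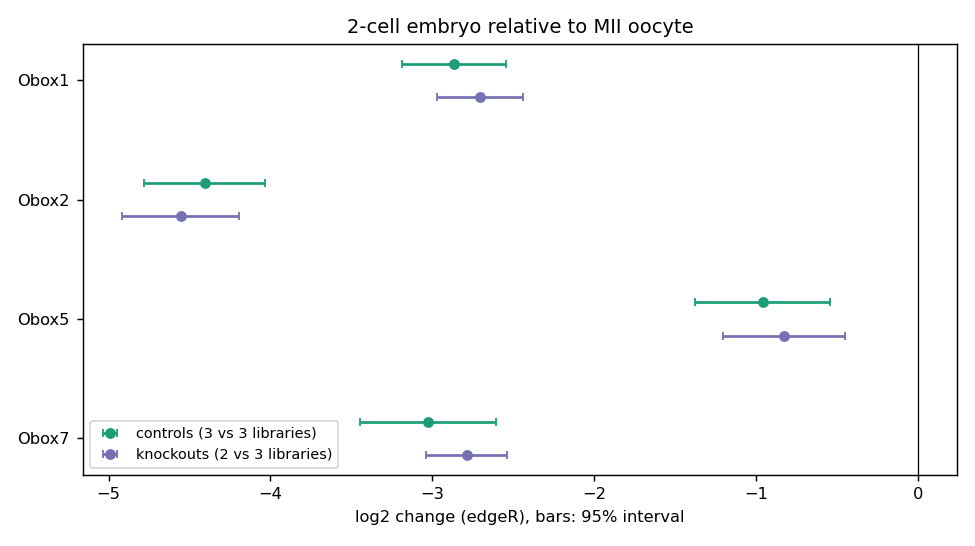
Log2 change from MII oocyte to 2-cell embryo (x axis, points) with its 95% interval (bars) in edgeR for controls and for knockouts. Obox1, Obox2, Obox5 and Obox7 all lie left of 0, with Obox5 nearest to it and Obox2 farthest, and the genes near 0 in oocytes are left out.

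Levels of different genes were compared as RPKM, which is CPM per kilobase of the deposited gene width. In control oocytes the order was Obox5 (694 RPKM), Obox1 (448), Obox2 (342) and Obox7 (128), and the libraries of neighbours in this order did not overlap. Obox3 (0.222) and Obox6 (0.143) followed and did overlap. Knockout oocytes had the same order of the maternal members, at 664, 459, 339 and 128 RPKM. In control embryos Obox5 was still first (363 RPKM), followed by Obox3 (165) and Obox6 (161), which overlapped, then Obox1 (62.5) and Crxos (39.5). Obox2 (16.4) and Obox7 (16.0) were last and overlapped. In maternal knockout embryos the order was Obox5 (385 RPKM), Obox3 (162), Obox6 (161), Obox1 (72.7), Crxos (37.5), Obox7 (19.1) and Obox2 (14.9), and of these neighbours Obox3 and Obox6 alone overlapped. The place of Crxos depends on the length used, since its deposited width is 2719 bases and its matched transcript 934. Per kilobase of the matched transcripts, a length chosen after the values were seen, Crxos was at 115 in control embryos, above Obox1 (50.3), and it was also above Obox1 in CPM (107 against 76.0). The order of the 4 maternal members in oocytes was the same with transcript lengths.

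As a share of the summed RPKM of the 7 genes, the 4 maternal members made up 99.98% in control oocytes and 55.0% ± 6.04 (SD, n = 3) in control embryos, where single libraries ran from 48.5% to 60.5%. In maternal knockout embryos the share was 57.3% ± 3.51 (SD, n = 2). Obox5 alone took 43.1% ± 0.866 in control oocytes and 43.4% ± 5.91 in control embryos (SD, n = 3), a difference smaller than the spread between embryo libraries, while Obox1 went from 27.8% to 7.60% and Obox2 from 21.2% to 2.04%. These shares also depend on the length. With transcript lengths the maternal members made up 43.0% ± 6.03 (SD, n = 3) in control embryos and 45.5% ± 3.64 (SD, n = 2) in maternal knockout embryos, and Obox5 went from 38.9% ± 0.885 in control oocytes to 32.9% ± 5.62 in control embryos (SD, n = 3). In CPM, the maternal members together went from 2072 to 594 in controls and from 2043 to 638 in knockouts. Obox3, Obox6 and Crxos together went from 0.548 to 587 CPM in controls and from 0.519 to 578 in knockouts. The sum over all 7 genes in embryos was 57.0% of that in oocytes in controls and 59.5% in knockouts.

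**Figure D4:**
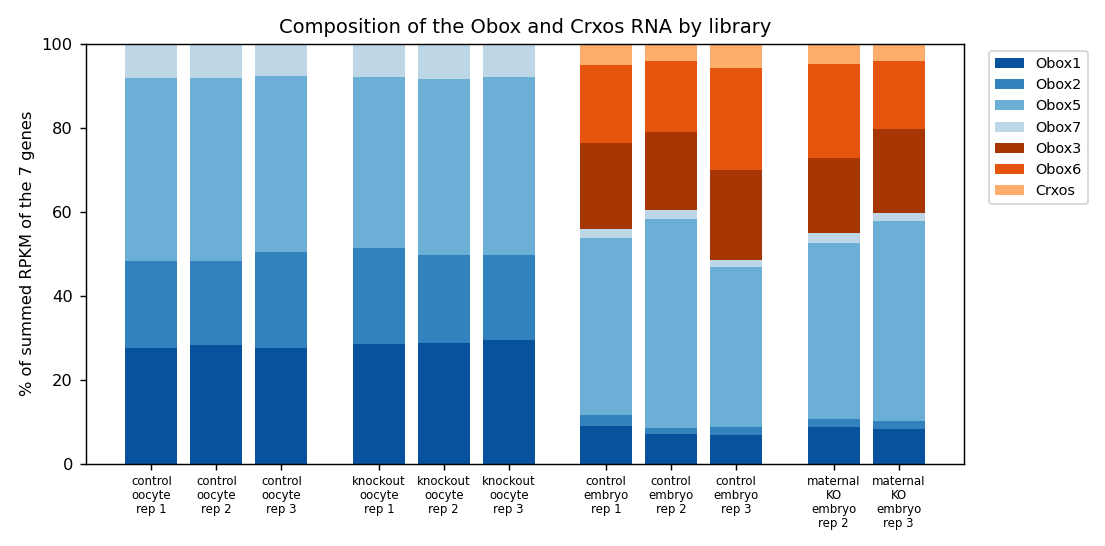
Share of the summed RPKM of the 7 genes (y axis, percent) taken by each gene in each library, with maternal members in blue and the others in orange. Oocyte libraries consist almost entirely of Obox5, Obox1, Obox2 and Obox7, whereas in embryos Obox3, Obox6 and Crxos make up 45.0% in controls and 42.7% in maternal knockouts on average by the deposited widths.

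The next comparison asked whether these genes differed in oocytes that had grown without Daxx. In oocytes, 5 of the 7 genes had enough reads to be tested, and 0 of the 5 changed in edgeR, DESeq2 or limma-voom. Of all 14235 genes tested, 0.583% were called. Unadjusted, 0 of the 5 had an edgeR p under 0.05, against 10.3% of all genes. The log2 differences of knockout from control were 0.02 for Obox1 (SE 0.05), -0.03 for Obox2 (SE 0.07), -0.08 for Obox5 (SE 0.05) and -0.02 for Obox7 (SE 0.05), with edgeR adjusted p between 0.60 and 0.95. The 95% intervals of the ratio of knockout to control were 0.939 to 1.09 for Obox1, 0.875 to 1.10 for Obox2, 0.879 to 1.01 for Obox5 and 0.916 to 1.06 for Obox7.

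Obox3 was at 0.356 CPM in control and 0.247 CPM in knockout oocytes (log2 -0.56, SE 0.40, edgeR adjusted p = 0.72), and its interval of 0.372 to 1.24 is wide because no oocyte library held more than 16 of its reads. Its groups did not overlap, which was so for 15.7% of all genes. Obox6, with 22 reads over the control and 30 over the knockout oocyte libraries, and Crxos, with 0 and 1, were too low to test.

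In 2-cell embryos, 0 of the 7 genes changed between maternal knockouts and controls in edgeR, DESeq2 or limma-voom, and 0 had an unadjusted edgeR p under 0.05. Of all 15414 genes tested, 0.0260% were called and 3.19% had an unadjusted p under 0.05. Among the maternal members, the log2 difference was 0.18 for Obox1 (SE 0.19), -0.17 for Obox2 (SE 0.23), 0.05 for Obox5 (SE 0.32) and 0.22 for Obox7 (SE 0.25). Among the genes abundant at this stage, it was -0.05 for Obox3 (SE 0.17), -0.03 for Obox6 (SE 0.13) and -0.11 for Crxos (SE 0.14). All had an edgeR adjusted p of 1.00, and the genotypes overlapped for every one of the 7 genes, while 17.8% of all genes had groups that did not overlap.

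The intervals say how large a difference these libraries leave possible. For Crxos the ratio of maternal knockout to control embryos lay between 0.754 and 1.14, for Obox6 between 0.803 and 1.19 and for Obox3 between 0.756 and 1.23. It lay between 0.856 and 1.50 for Obox1, 0.629 and 1.25 for Obox2, and 0.808 and 1.68 for Obox7. The widest was that of Obox5, from 0.605 to 1.77, with 2 libraries against 3.

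**Figure D5:**
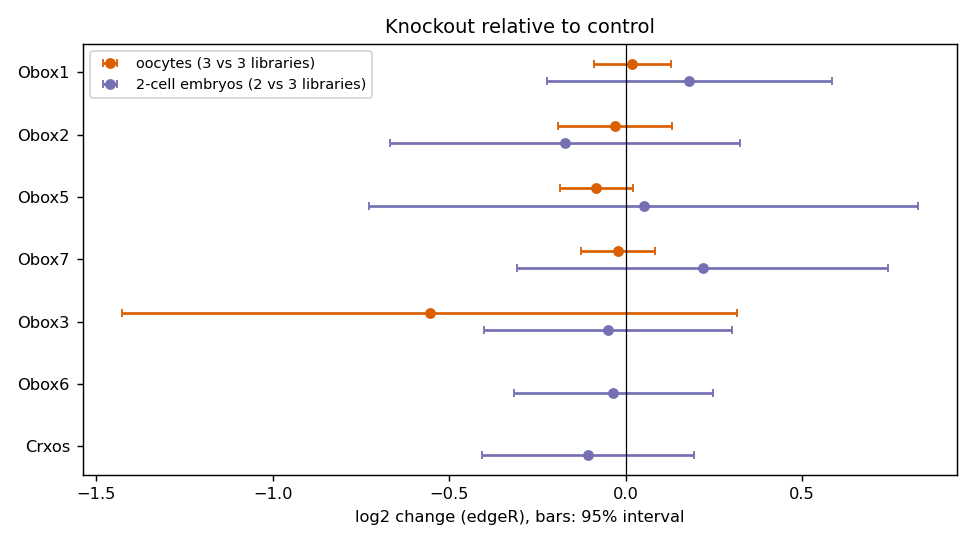
Log2 difference of knockout from control (x axis, points) with its 95% interval (bars) in edgeR, in oocytes and in 2-cell embryos. Every interval includes 0; those of oocytes are narrow except for Obox3, and Obox6 and Crxos have no oocyte value because they were too low to test.

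The difference between the genotype effect in embryos and that in oocytes was tested in 1 fit over all libraries. It passed for 0 of the 7 genes in edgeR, DESeq2 and limma-voom, against 0.0118% of 17018 genes in edgeR, and 0 of the 7 had an unadjusted p under 0.05, against 5.41% of all genes. The adjusted p lay between 0.94 and 1.00. Obox6 (log2 -0.43, SE 0.46) and Crxos (-1.76, SE 1.13) were too low in oocytes to be tested there. They entered this fit only through the embryo libraries, so it cannot decide whether their genotype effects differ between stages. On simulated counts with the same spread for every gene, this test found 32% of 2-fold changes. That share is not its sensitivity for the single members. For Daxx itself the same difference was 2.76 (SE 0.16, edgeR adjusted p = 3.4e-07).

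Among other homeobox genes of the germ line and early embryo, 12 of 26 tested rose and 7 fell in controls in edgeR, where 43.1% of all genes rose and 40.0% fell. Their median log2 change was 0.31 against 0.07 over all genes. Only 20 genes of this list had enough reads to be tested between oocyte genotypes. Some of those that rose therefore passed the filter on low counts only through the embryo libraries. Nobox, an oocyte homeobox factor needed for follicle growth, went from 341 to 27.0 CPM (log2 -3.68, SE 0.11, adjusted p = 1.1e-10), a fall between those of Obox1 and Obox2. Lhx8, another oocyte homeobox gene, fell by 2.21 on the log2 scale (SE 0.11). Adnp rose from 2.47 to 224 CPM (6.47, SE 0.19) and Dmbx1 from 0.472 to 17.2 CPM (5.13, SE 0.31). Sebox, a maternal homeobox gene chosen here after its values were seen, was at 80.7 CPM in control oocytes and 82.1 in control embryos. In knockouts, 11 of 27 rose and 6 fell, where 42.5% of all genes rose and 37.7% fell, with a median of 0.24 against 0.09 over all genes.

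Of 23 factors with a known part in activation of the embryonic genome, 20 rose and 3 fell in controls, with a median log2 change of 2.73, and the counts in knockouts were 20 and 3 with a median of 2.46. Beside them stand 43.1% of all genes that rose and 40.0% that fell in controls (median 0.07), and 42.5% and 37.7% in knockouts (median 0.09), which is also the background of the next lists. Kdm5b, a histone demethylase, went from 7.74 to 1363 CPM in controls (log2 7.43, SE 0.11) and Gabpa, an ETS factor, from 0.805 to 541 CPM (9.36, SE 0.16). Nfya, a subunit of the CCAAT-binding factor NF-Y, fell by 2.56 (SE 0.09) and Nelfa, a subunit of a polymerase pausing factor, by 1.25 (SE 0.08). Of 24 genes known for a transient peak at the 2-cell stage, 22 rose and 2 fell in controls (median 8.96), and 21 rose and 2 fell in knockouts (median 8.88). Among them Tmem92 went from 0.906 to 135 CPM in controls and Arg2 fell from 240.2 to 71.6 CPM. Only 7 of these 24 genes had enough reads to be tested between oocyte genotypes, and 21 of the 23 activation factors. The rest were low in oocytes and passed the filter on low counts through the embryo libraries. Their rise was largely fixed by that filter, so the counts and median of the 2-cell list only describe it. Of 11 oocyte markers, 10 fell and 0 rose in either genotype, with a median of -2.51 in controls and -2.29 in knockouts. H1f8, the oocyte linker histone, fell by 5.29 in controls and the growth factor gene Gdf9 fell by 3.78. The lists of activation factors and of 2-cell genes share some members.

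Between genotypes, 0 genes of these 3 lists of homeobox genes, activation factors and 2-cell genes changed at either stage in edgeR, DESeq2 or limma-voom. In oocytes 3 of 20, 2 of 21 and 2 of 7 tested genes had an unadjusted edgeR p under 0.05, against 10.3% of all genes, and in embryos 3 of 28, 1 of 23 and 0 of 24, against 3.19%. The median log2 differences were 0.03, -0.02 and 0.39 in oocytes and 0.02, -0.10 and 0.02 in embryos, beside 0.00 over all genes at both stages.

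The genes whose pattern was most like each member were sought among 21190 genes as the smallest Euclidean distance of log2(CPM + 1) over the 11 libraries, which compares level and change together. Nearest to Obox1 were Orc5, a subunit of the origin recognition complex (distance 0.52), and Sfr1, a recombination factor (0.56). Orc5 had 553 CPM in control oocytes and 87.1 in control embryos. Nearest to Obox7 were the olfactory receptor gene Olfr976 (0.42), at 157 and 18.3 CPM in the same groups, and the F-box gene Fbxw22 (0.53), at 166 and 19.4. Obox2 had more distant neighbours, Cpsf4l (1.13) and Elp2 (1.33).

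Obox5 was closest to Ecpas, a proteasome adaptor gene (0.75), and to Cnot6l, which encodes a deadenylase of the CCR4-NOT complex (0.77). Cnot6l had 986 CPM in control oocytes and 489 in control embryos. Among genes like the members abundant in embryos, Zfp622 (0.66) and Mak16 (0.74) were nearest to Obox3, and Trim43b (0.56) and the fatty acid elongase gene Elovl6 (0.70) to Obox6. Trim43b was at 0.106 CPM in control oocytes and 212 in control embryos. Nearest to Crxos were Gm12789 (0.32), with 0.0465 and 99.6 CPM, and the MHC class I gene H2-Q6 (0.47), with 0.0102 and 116 CPM. These neighbours were named by distance alone.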

How the data were processed

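The deposited table holds whole-number read counts for 24421 genes in 11 libraries and a width per gene. The libraries were made with the SoLo kit from total RNA, per the labels' protocols. Per the submitters' processing notes, STAR 2.5.0a, SAMtools and the build GRCm38 (mm10) were used. No source used here names the counting program, its strand setting or what it did with shared reads. Of the identifiers, 24387 matched a RefSeq table of GRCm38.p6, from which symbols and coordinates were taken. Libraries were grouped by the labels' stage and genotype, and each is called 1 biological group there.

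CPM is the count per 1000000 counted reads of the library, and RPKM also divides by the deposited width in kilobases. With 17978192 to 39798586 reads per library, a count of 0 allows up to 0.0754 to 0.167 CPM (3 counts). Floors and counting intervals cover counting error alone, because PCR was used and no molecular identifiers are recorded. Pairs of replicates differed by a chi-square of 4.86 to 34.3 per degree of freedom, so none was treated as a duplicate.

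Tests used edgeR 4.0.16 in R 4.3.3 (filterByExpr with a count minimum of 10, TMM, quasi-likelihood F test with robust dispersion), with Benjamini-Hochberg adjustment over all genes tested and a threshold of 0.05. SE is the log2 change divided by the square root of F, and 95% intervals use the degrees of freedom of edgeR. Comparisons were embryo against oocyte in each genotype, knockout against control at each stage, and the difference of those effects. The comparisons share libraries. Alternatives were DESeq2 1.42.0, limma-voom (limma 3.58.1), RLE factors, library totals, other filters, 1 fit of all libraries, a replicate block and each library left out in turn, and matched transcript lengths for levels, added after the values were seen. Replicate numbers were not used to pair the libraries, because the labels state no shared source. Correlations of deviations from the group means ran from -0.21 to 0.23 for same-numbered libraries and from -0.38 to 0.29 for the others. With 2 maternal knockout embryo libraries the deviations mirror each other. These correlations therefore cannot decide whether the libraries were paired.

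The members, gene lists and named-gene rule were chosen with earlier results of these data known. The rule named the 7 genes, Daxx, Crx, up to 2 genes per list and direction that passed with the smallest p in a stage comparison, up to 3 per list in a genotype comparison (Prm2 alone passed), and the 2 genes nearest to each member in pattern. A few genes meeting this rule were left out. On simulated counts, 72% of the 2-fold changes were found between control stages (15178 genes), 60% between knockout stages (15924 genes), 86% between oocyte genotypes (14094 genes), 64% between embryo genotypes (15234 genes) and 32% for the difference of genotype effects (16165 genes). Every simulated gene had the same spread, and only genes above a set mean count were changed. These shares are therefore not the sensitivity for single members.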

Additional observations from a re-analysis of the deposited data

Results flagged for a closer look

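The difference between the effect of genotype on Daxx in embryos and in oocytes passed its test: the log2 value of this difference was 2.76, with an SE of 0.16 and an edgeR adjusted p of 3.4e-07, with the knockout at 8.14 CPM against 92.6 in oocytes and at 24.2 against 39.7 in embryos. The embryos carry a paternal allele by design. None of the 7 Obox and Crxos genes passed this test, the only criterion applied. For Obox6 and Crxos the test rests on few or no oocyte reads.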

How the results depend on the processing

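The stage calls of Obox1, Obox2, Obox5 and Obox7 held in all 14 alternatives in controls and all 13 in knockouts, and no member was called between genotypes in any alternative run. Obox5 had the least margin: its stage change ran from -1.24 to -0.77 in controls (adjusted p up to 0.019) and from -1.17 to -0.57 in knockouts (up to 0.0091). The alternatives without 1 maternal knockout library kept 1 library in that group, so their spread came from the other libraries alone. RLE or DESeq2 scaling moved the median of all genes by at most 0.099 between stages. Taking the replicate number as a block, which the labels do not state as a pairing, changed no member's call; it moved Obox2 in embryos from -0.17 to 0.038, the calls over all genes in oocytes from 64 higher and 19 lower to 78 and 32, and in embryos from 4 and 0 to 1 and 1.

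Besides that block, fits without 1 library turned the sign of genotype differences that had not passed. Over those fits alone the ranges in oocytes were -0.021 to 0.058 for Obox1, -0.077 to 0.068 for Obox2 and -0.048 to 0.023 for Obox7. In embryos they were -0.0037 to 0.34 for Obox1, -0.47 to 0.075 for Obox2, -0.37 to 0.20 for Obox3, -0.29 to 0.34 for Obox5 and -0.016 to 0.45 for Obox7. For the difference between stages they were -0.018 to 0.31 for Obox1, -0.43 to 0.095 for Obox2, -0.20 to 0.41 for Obox5 and -0.95 to 0.069 for Obox6. Each such fit had fewer samples, and those without 1 maternal knockout library kept 1 library in that group.

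The calls over all genes beside which the members were read also moved. In oocytes (64 higher, 19 lower) there were 154 and 73 in DESeq2, 12 lower in limma-voom, 130 and 53 without a filter on low counts and 18 and 4 with all libraries in 1 fit. Leaving out 1 library gave 16 (without control replicate 2) to 117 higher (without control replicate 3) and 4 (without control replicate 1) to 40 lower (without control replicate 3). In embryos (4 and 0) there were 9 and 1 in DESeq2, 2 higher in limma-voom and with library totals, 30 and 2 without a filter and 12 and 1 in 1 fit. No gene was called higher there without control replicate 1 or 3. Calls without 1 maternal knockout library are not given, because 1 library was then left in that group. The difference between stages (2 and 0) had 4 and 3 in DESeq2 and 1 and 1 in limma-voom. The cause of these shifts was not tested. Depth limits Obox3, Obox6 and Crxos in oocytes, where no library held more than 16 reads of any of them.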
